A study of Mus musculus with 8 samples.

Results

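The comparison was between ASZ001 cells with Tgfbr1 knocked down and cells labelled NS, both of the RasV12 genotype and both treated with Dox and 4OHT. Per the series' design text the cells carried an shRNA against Tgfbr1 or a non-silencing (NS) shRNA, and the series title names a transition of basal into squamous cell carcinoma as its subject. A short hairpin RNA (shRNA) lowers the transcript it matches. ASZ001 is a mouse basal cell carcinoma line, a keratinocyte tumour line usually described as having an active Hedgehog pathway. Activity of that pathway in these libraries was not tested. The members were 4 of the 8 libraries of the series: 2 labelled TGFbR1kd_RasV12 and 2 labelled RasV12 with NS in the title, all 4 with the treatment Dox-4OHT. The other 4 libraries were knockdown cells (genotype TGFbR1kd, 2 libraries) and NS cells (genotype control, 2 libraries) under DMSO, and they serve here only for the question whether the knockdown acted alike under both treatments. Dox usually stands for doxycycline and 4OHT for 4-hydroxytamoxifen, agents used to switch engineered genes on. Doses and times, the number of different shRNAs or clones behind each group, and whether the duplicates came from separate cultures are not stated in the labels. The p-values therefore cover the spread between libraries, which may be technical. Every cell compared had received Dox and 4OHT together with the RasV12 genotype, so effects of the agents and of RasV12 cannot be told apart within these 4 libraries.

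TGF-beta, the activins and the BMPs are secreted ligands that bind pairs of type II and type I receptor kinases. Tgfbr1 encodes the type I receptor for TGF-beta. Once Tgfbr2 has phosphorylated it, it phosphorylates Smad2 and Smad3, which enter the nucleus with Smad4 and change transcription. In keratinocytes the pathway is best known for holding back division and for inducing matrix, protease inhibitor and feedback genes. Ras, through RAF, MEK and ERK, drives division and switches on its own feedback inhibitors.

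The 4 libraries held 12724604.5 to 15542242 estimated counts each, with 13047710 in the shallower knockdown library. Replicates correlated at r = 0.9971 to 0.9979 over log2 values in the 4 groups of the series. The ribosomal precursor entry Rn45s took 2.49% and 2.57% of counts in the knockdown libraries, against 0.916% and 2.76% in the NS libraries, so the first NS library stood apart in this measure. Genes over 8 kb long differed between replicates in opposite senses. The median log2 ratio of replicate 1 to replicate 2 over 531 such genes was -0.11 in knockdown cells and 0.107 in NS cells, while their median knockdown change was 0.001. All 8 keratinocyte markers were detected, with summed levels of 12490 to 12970 CPM in knockdown cells and 12730 to 12970 CPM in NS cells. The immune markers Ptprc, Adgre1 and Cd3e, the melanocyte markers Tyr, Dct and Mlana and the fibroblast genes Lum and Col3a1 had no count in any of the 4 libraries. Other markers of these cells moved with the knockdown. The 5 melanocyte markers summed to 38.0 to 40.9 CPM in knockdown cells and 55.8 to 57.7 CPM in NS cells, which was Mitf and Pmel alone, and Mitf fell (-0.58 ± 0.07, adjusted p = 1.63e-08). The 4 endothelial markers summed to 35.3 to 35.5 CPM in knockdown cells and 22.99 to 24.5 CPM in NS cells. Pecam1 (0.47 ± 0.08, adjusted p = 8.49e-06) and Tek (2.48 ± 0.40, adjusted p = 3.88e-07) rose, while Cdh5 and Kdr had at most 1 count in any of the 4 libraries. The part of such cells in the results was not tested. The summed fibroblast list lay at 1.14 to 1.95 CPM in knockdown cells and 3.47 to 4.39 CPM in NS cells. In bulk RNA fewer cells of a kind and less RNA per cell cannot be told apart.

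Tgfbr1 itself stood at 8.86 and 9.41 CPM in knockdown cells, against 104 and 91.6 CPM in NS cells, and the groups did not overlap. The log2 change was -3.43 ± 0.11 (edgeR's quasi-likelihood test, Benjamini-Hochberg adjusted p = 1.86e-20), with 1.59 CPM per kb in knockdown cells and 17.1 CPM per kb in NS cells. Values throughout are CPM, counts scaled to a common library total after each total was adjusted by its TMM scaling factor. Each group has 2 libraries, and changes are knockdown over NS on the log2 scale with the standard error of the fit. A gene is called where its adjusted p is under 0.05.

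The difference reached most of the transcriptome, mostly by small steps. Of 12538 genes tested 7541 were called (60.1%), 3823 higher (30.5%) and 3718 lower (29.7%) in knockdown cells. The median size of the called changes was 0.423 on the log2 scale, and 65.5% of called genes changed by less than 1.5-fold. Changes of 2-fold or more were rarer, at 704 genes called and at least 2-fold higher (5.61%) and 586 called and at least 2-fold lower (4.67%). A count of list members is therefore read below against a background in which most genes are called, 30.5% higher and 29.7% lower. Where a list's shares lie near these, its count does not set it apart from all genes. The median change over all genes was -0.0072.

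The 15 largest rises were in genes of several functions. Cldn4, a tight junction claudin, stood at 266 and 266 CPM in knockdown cells, against 6.75 and 8.31 CPM in NS cells (log2 change 5.13 ± 0.10, adjusted p = 1.02e-27). Hmga2, which encodes an architectural protein that bends DNA in embryos and tumours, stood at 119 and 119.7 CPM in knockdown cells, against 6.94 and 5.56 CPM in NS cells (log2 change 4.25 ± 0.12, adjusted p = 3.93e-24). Sprr1b, a cornified envelope precursor, stood at 191 and 187 CPM in knockdown cells, against 5.25 and 5.198 CPM in NS cells (log2 change 5.17 ± 0.11, adjusted p = 2.18e-27). In each of these the libraries of a group differed by a small part of the gap between groups. Msln, which encodes the surface protein mesothelin, had 40.96 and 41.6 CPM in knockdown and 0.772 and 0.586 CPM in NS cells (5.91 ± 0.35, adjusted p = 1.22e-20). The kinase gene Nrk had 51.3 and 58.4 CPM in knockdown and 4.36 and 3.66 CPM in NS cells (3.78 ± 0.15, adjusted p = 1.68e-20). The protease gene Adam8 had 21.8 and 20.97 CPM in knockdown and 1.35 and 1.21 CPM in NS cells (4.05 ± 0.24, adjusted p = 2.81e-17). Padi4, a peptidylarginine deiminase, had 16.5 and 16.6 CPM in knockdown and 0.424 and 0.146 CPM in NS cells. Flnc, an actin cross-linking filamin, had 9.47 and 10.7 CPM in knockdown and 0.193 and 0.2196 CPM in NS cells. NS cells thus held little of either transcript. Nipal1, a membrane transporter gene, had 11.4 and 11.2 CPM in knockdown and 0.2701 and 0.0732 CPM in NS cells. Ikbke, a kinase of innate immune signalling, had 10.7 and 10.3 CPM in knockdown and 0.386 and 0.512 CPM in NS cells. The 4 adjusted p values were at most 2.75e-14. Asprv1, a protease that processes filaggrin, had 32.6 and 30.7 CPM in knockdown and 1.62 and 1.17 CPM in NS cells (4.50 ± 0.97, adjusted p = 0.00375).

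For a pair of these genes the NS side was nearly empty. Crct1, a gene of the epidermal differentiation complex, had 346.5 counts over both knockdown libraries and 1 over both NS libraries, a ratio of 327.0 with a 95% interval of 58.3 to 12950 for counting error alone. The imprinted long non-coding RNA H19 had 296.5 counts over both knockdown libraries and 1 over both NS libraries, a ratio of 279.7 (49.82 to 11090). Ccl2 and Icam1, which complete the 15, are described with the cytokine genes.

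The 15 largest falls held matrix genes and genes of other functions. The fibrillar collagen gene Col11a1 stood at 0.847 and 1.02 CPM in knockdown cells, against 46.95 and 40.1 CPM in NS cells (log2 change -5.54 ± 0.33, adjusted p = 1.49e-16). Prelp, a leucine-rich matrix proteoglycan, stood at 3.42 and 2.07 CPM in knockdown cells, against 55.1 and 46.9 CPM in NS cells (log2 change -4.20 ± 0.26, adjusted p = 8.26e-10). Fbn2, a microfibril protein and one of the long genes, stood at 4.07 and 5.12 CPM in knockdown cells, against 72.1 and 52.8 CPM in NS cells (log2 change -3.77 ± 0.52, adjusted p = 0.00137). Each group's values lay far from the other's, although the NS libraries differed from each other for Fbn2. Xylt1, which starts the sugar chains of proteoglycans, had 1.33 and 1.37 CPM in knockdown and 15.7 and 15.6 CPM in NS cells (-3.52 ± 0.24, adjusted p = 2.33e-15). Cyp4b1, a cytochrome P450, had 0.326 and 0.391 CPM in knockdown and 22.2 and 18.6 CPM in NS cells (-5.81 ± 0.48, adjusted p = 3.79e-17). Id4, an inhibitor of helix-loop-helix factors, had 1.92 and 1.64 CPM in knockdown and 18.1 and 15.8 CPM in NS cells (-3.22 ± 0.21, adjusted p = 2.88e-15). The others were Eya2, a transcriptional cofactor (-4.25 ± 0.39), the secreted protein gene Pi15 (-3.49 ± 0.17), the endosomal sorting gene Mvb12b (-3.29 ± 0.20), the AMP-activated kinase subunit gene Prkaa2 (-3.18 ± 0.14), the non-coding Cep83os (-3.10 ± 0.27), the G protein gene Gnao1 (-3.08 ± 0.14), the mitochondrial carrier gene Ucp2 (-3.04 ± 0.21) and the monocarboxylate transporter gene Slc16a7 (-2.82 ± 0.20), with adjusted p values of at most 1.04e-12. Tgfbr1 was the other member of these 15.

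**Figure D1:**
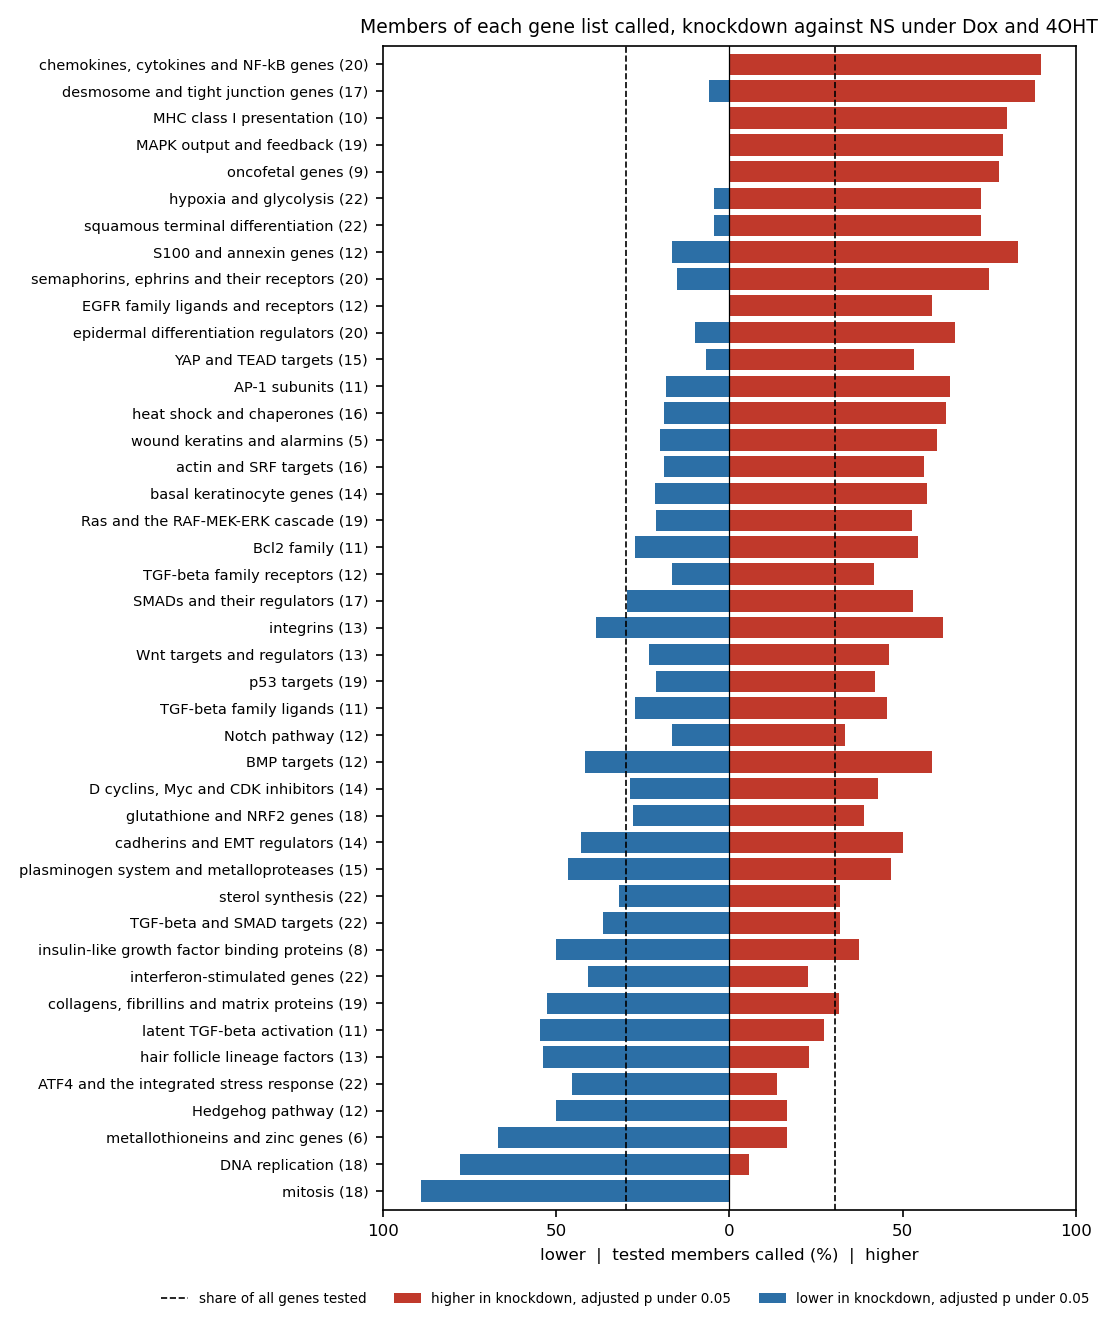
Share of the tested members of each gene list called in knockdown against NS cells under Dox and 4OHT (horizontal axis, percent; higher to the right, lower to the left; number tested in brackets). Dashed lines mark the share of all 12538 genes, 30.5% higher and 29.7% lower; chemokine and NF-kB genes stand at one end with 18 of 20 higher and mitosis genes at the other with 16 of 18 lower.

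Among the other TGF-beta family receptors, Tgfbr2, the type II partner of Tgfbr1, stood at 169.6 and 168 CPM in knockdown cells, against 88.8 and 90.01 CPM in NS cells (log2 change 0.92 ± 0.04, adjusted p = 1.68e-16). Tgfbr3, a co-receptor that presents ligand, stood at 7.29 and 6.13 CPM in knockdown cells, against 0.2701 and 0.2196 CPM in NS cells (log2 change 4.63 ± 0.55, adjusted p = 4.08e-12). Neither gene's groups overlapped, and both were higher where Tgfbr1 was low. The activin type I receptor gene Acvr1b rose (103 and 98.7 CPM in knockdown and 73.8 and 67.6 CPM in NS cells, 0.51 ± 0.05, adjusted p = 2.12e-09). The activin type II receptor genes Acvr2a and Acvr2b rose (0.22 ± 0.07, adjusted p = 0.00504, and 0.47 ± 0.15, adjusted p = 0.00788). Acvr1, a type I receptor used by BMPs and activins, fell (-0.38 ± 0.06, adjusted p = 5.98e-06). The BMP receptor genes did not pass the test, with Bmpr1a at 175 and 176 CPM in knockdown and 173 and 159 CPM in NS cells and Bmpr2 at 176 and 199 CPM in knockdown and 233 and 176 CPM in NS cells. Acvr2a lost its call without Dox-4OHT NS library 2 (adjusted p = 0.198). Acvr2b lost its call with DESeq2 (adjusted p = 0.0899), without Dox-4OHT knockdown library 1 (0.132) and without Dox-4OHT NS library 2 (0.068). Bmpr1a passed without Dox-4OHT NS library 1 (adjusted p = 0.0146). In all, 5 of 12 tested receptors were higher and 2 lower, against 30.5% and 29.7% of all genes, and the list's median change was 0.15. Without the second Dox-4OHT NS library 3 were higher.

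The ligand genes split by member. Bmp2 rose to 54.9 and 49.02 CPM in knockdown cells, against 25.9 and 25.5 CPM in NS cells (log2 change 1.02 ± 0.08, adjusted p = 3.17e-12). Bmp4 had 28.9 and 27.9 CPM in knockdown and 19.02 and 19.2 CPM in NS cells (0.57 ± 0.09, adjusted p = 2.86e-06). Bmp1, a protease that matures collagens and frees ligands, had 154 and 156 CPM in knockdown and 111 and 114 CPM in NS cells (0.47 ± 0.05, adjusted p = 2.02e-09). Inhbb, an activin subunit, fell (161 and 157 CPM in knockdown and 232 and 228 CPM in NS cells, -0.53 ± 0.04, adjusted p = 2.06e-12). Tgfb2 and Bmp7 also fell (Tgfb2 41.6 and 44.6 CPM in knockdown and 70.5 and 62.99 CPM in NS cells, -0.63 ± 0.07, adjusted p = 2.58e-08, and Bmp7 -0.82 ± 0.17, adjusted p = 0.000512), whereas Tgfb1 rose (76.03 and 79.9 CPM in knockdown and 63.4 and 60.4 CPM in NS cells, 0.33 ± 0.05, adjusted p = 7.46e-06). Gdf11 rose too (0.53 ± 0.08, adjusted p = 1.42e-06). Tgfb3, Inhba and Gdf15 did not pass (-0.17 ± 0.11, -0.12 ± 0.06 and 0.95 ± 0.45). Inhba passed with no filter on low counts (adjusted p = 0.0493), without Dox-4OHT NS library 2 (0.0364), without DMSO knockdown library 1 (0.0423), without DMSO knockdown library 2 (0.041) and with Rn45s left out (0.0466). That made 5 higher and 3 lower of 11 tested, with a median of 0.33. The protease gene Bmp1, which encodes no ligand of this family, is included in these counts and in the median.

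**Figure D2:**
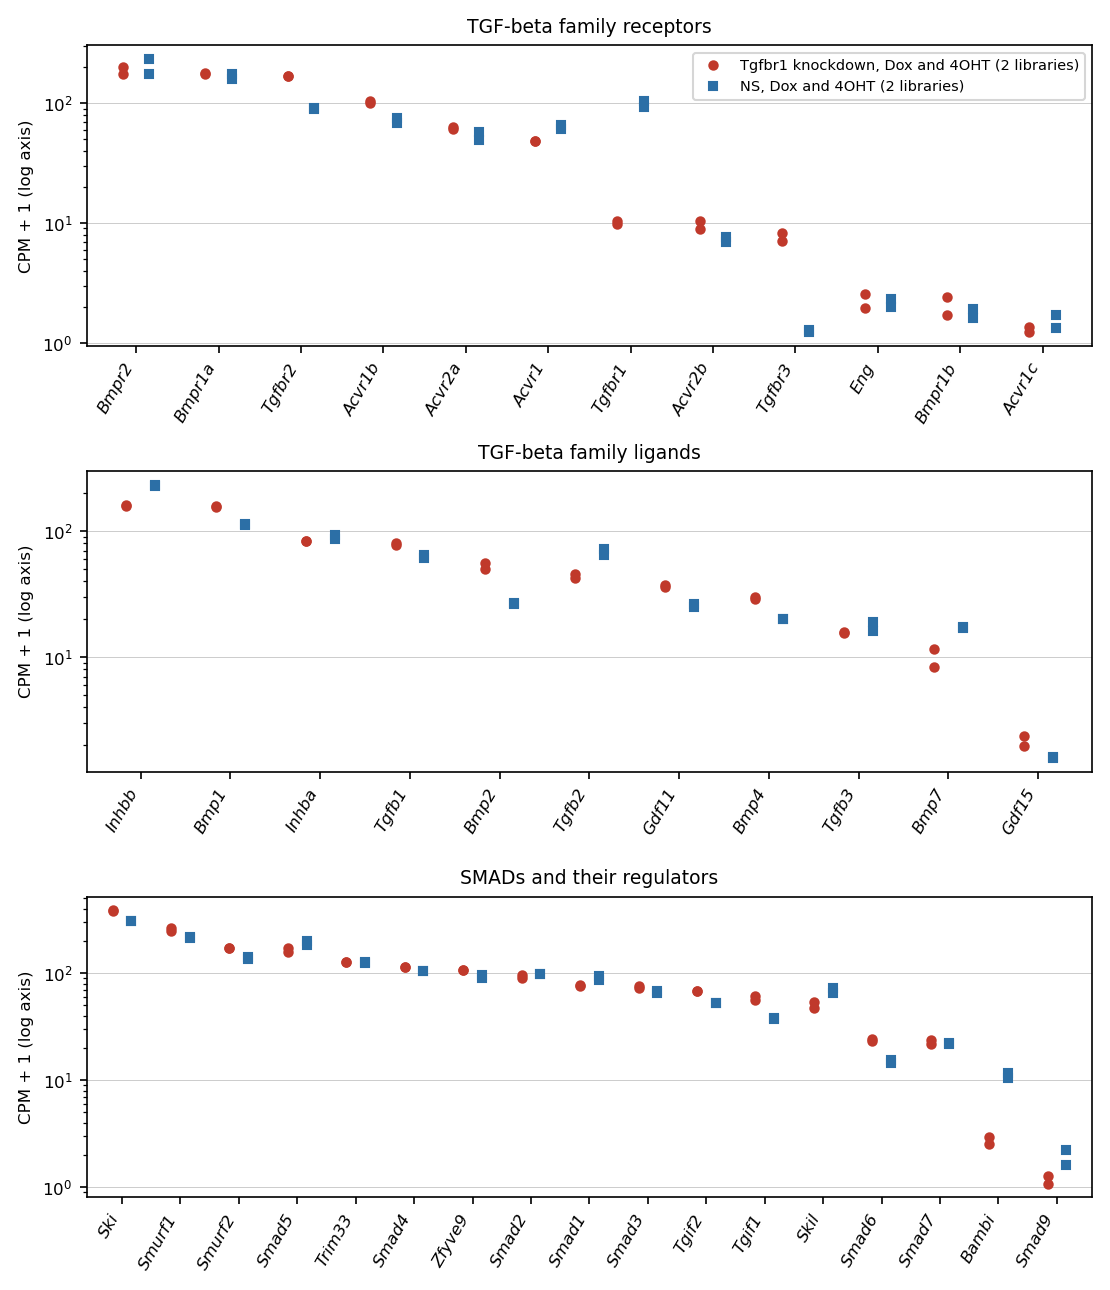
Levels of tested TGF-beta family receptors, ligands and SMADs with their regulators in each library (vertical log axis, CPM plus 1; red circles knockdown cells and blue squares NS cells, 2 libraries each, both under Dox and 4OHT). Tgfbr1 sits at 8.86 and 9.41 CPM in knockdown cells, against 104 and 91.6 CPM in NS cells, while Tgfbr2 and Tgfbr3 lie higher in knockdown cells and Bambi lower.

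Of 17 genes of SMADs and their regulators 9 rose, none by 2-fold, and 5 fell, 2 of them by 2-fold or more (median 0.13). The share lower, 29.41%, lay near the 29.7% of all genes, and the share higher was 52.94%, against 30.5%. Smad2, a substrate of Tgfbr1, had 88.99 and 95.6 CPM in knockdown and 98.00 and 97.1 CPM in NS cells and did not pass (-0.08 ± 0.05, adjusted p = 0.144). Smad3, the other substrate, rose slightly (0.17 ± 0.06, adjusted p = 0.0118) and so did Smad4 (0.13 ± 0.04, adjusted p = 0.01). The BMP transducers Smad1 and Smad5 fell (-0.25 ± 0.05, adjusted p = 0.000215, and -0.24 ± 0.05, adjusted p = 0.000104). Smad9, the other BMP transducer, fell to 0.2605 and 0.0781 CPM in knockdown cells, against 0.617 and 1.24 CPM in NS cells (log2 change -2.35 ± 0.79, adjusted p = 0.00347). Smad9 lost its call without Dox-4OHT NS library 2 (adjusted p = 0.0971). Of the inhibitory SMADs, Smad6 rose (23.1 and 22.2 CPM in knockdown and 13.5 and 14.4 CPM in NS cells, 0.70 ± 0.10, adjusted p = 4.21e-07). Smad7, a feedback target of TGF-beta, stood at 22.5 and 20.8 CPM in knockdown cells, against 20.8 and 21.05 CPM in NS cells (log2 change 0.05 ± 0.09, adjusted p = 0.649). Bambi, a pseudoreceptor that blocks signalling, fell to 1.53 and 1.91 CPM in knockdown cells, against 10.6 and 9.37 CPM in NS cells (log2 change -2.55 ± 0.22, adjusted p = 4.41e-12). The corepressor genes Ski and Tgif1 rose (0.31 ± 0.04 and 0.64 ± 0.07) and Skil fell (-0.46 ± 0.07), each with adjusted p of at most 2.86e-06. Smad3 lost its call with DESeq2 (adjusted p = 0.0716), without Dox-4OHT knockdown library 2 (0.094) and without Dox-4OHT NS library 2 (0.084). Smad4 lost its call with DESeq2 (adjusted p = 0.0719).

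Genes that store and free latent TGF-beta leaned lower, with 6 of 11 lower and a median of -0.37. The share lower was 54.55%, against 29.7% of all genes, while the 3 higher (27.27%) lay near the 30.5% of all genes. Thbs1, thrombospondin-1, which activates latent TGF-beta and is also a TGF-beta target, stood at 1110.5 and 1162 CPM in knockdown cells, against 2209 and 2265 CPM in NS cells (log2 change -0.98 ± 0.03, adjusted p = 1.13e-19). The latent binding protein genes Ltbp1, Ltbp3 and Ltbp4 fell (-0.37 ± 0.04, -0.50 ± 0.05 and -0.46 ± 0.04, adjusted p at most 8.26e-10), as did the integrin subunit gene Itgb8 (-0.78 ± 0.10, adjusted p = 4.73e-08). The activating integrin subunits Itgb6 and Itgav rose instead (Itgb6 43.6 and 46.6 CPM in knockdown and 25.3 and 20.4 CPM in NS cells, 0.98 ± 0.09, adjusted p = 6.16e-10, and Itgav 0.48 ± 0.05, adjusted p = 2.61e-06).

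The list of TGF-beta and SMAD targets did not move one way: 7 of 22 tested rose, 8 fell and 7 did not pass, close to the background, and the median was -0.04. Pmepa1, a feedback inhibitor of SMAD signalling, stood at 139.8 and 149 CPM in knockdown cells, against 332 and 329 CPM in NS cells (log2 change -1.20 ± 0.04, adjusted p = 2.08e-19). The basement membrane collagen gene Col4a1 stood at 406 and 416 CPM in knockdown cells, against 678 and 679.7 CPM in NS cells (log2 change -0.72 ± 0.03, adjusted p = 7.09e-17). These were lower in every knockdown library than in every NS library. The targets that rose included Cdkn1a, the p21 inhibitor of cyclin-dependent kinases (69.8 and 67.5 CPM in knockdown and 30.2 and 31.8 CPM in NS cells, 1.15 ± 0.07, adjusted p = 4.19e-14), Col4a2 (987 and 1024 CPM in knockdown and 749.9 and 741 CPM in NS cells, 0.43 ± 0.03, adjusted p = 1.22e-12) and Itgb6. The others that rose were Cdkn2b, encoding p15 (0.45 ± 0.07), the Notch ligand gene Jag1 (0.46 ± 0.04), Wnt9a (0.82 ± 0.10) and Tgfbi (0.24 ± 0.05), with adjusted p of at most 0.0011. All 12 tested BMP targets were called, 7 higher and 5 lower, where 60.1% of all genes were called. Id1, Id2 and Id3 rose (0.36 ± 0.05, 0.58 ± 0.09 and 0.67 ± 0.05). The BMP antagonist gene Nog rose (1.15 ± 0.18, adjusted p = 3.37e-06), as did the activin antagonist gene Fst (451 and 473 CPM in knockdown and 337 and 367 CPM in NS cells, 0.39 ± 0.04, adjusted p = 1.25e-08). Id4 and Bambi fell as given above and the homeobox genes Msx1 and Msx2 fell by 0.63 and 0.40.

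The engineered side of the system was checked through the Ras genes and through Esr1. Hras stood at 53.3 and 52.3 CPM in knockdown cells, against 162 and 158 CPM in NS cells (log2 change -1.60 ± 0.05, adjusted p = 6.26e-21). The DMSO libraries showed the same gap, with 57.8 and 58.6 CPM in DMSO-treated knockdown cells, against 176 and 179 CPM in DMSO-treated NS cells, and the knockdown change did not differ detectably between treatments (interaction 0.01 ± 0.07, adjusted p = 0.933). Esr1, the oestrogen receptor gene, stood at 3985 and 3785 CPM in knockdown cells, against 3449.6 and 3655 CPM in NS cells (log2 change 0.13 ± 0.04, adjusted p = 0.00299), with the call lost without the first library of either group (adjusted p = 0.0868 and 0.0586), whereas all 4 DMSO libraries lay between 14.03 and 22.7 CPM. Nras rose (354 and 351 CPM in knockdown and 267 and 259 CPM in NS cells, 0.42 ± 0.03, adjusted p = 3.62e-11). Which Ras gene carried V12, and whether its transcripts map to a mouse Ras entry, is not stated in the labels. The part of the lower Hras level in the other differences was not tested.

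In the list of Ras genes and the RAF-MEK-ERK cascade 10 of 19 members were higher and 4 lower (median 0.15). Of the called members 1 was at least 2-fold higher and 1 at least 2-fold lower. Rasa1, a GTPase-activating protein that switches Ras off, rose (165 and 171 CPM in knockdown and 86.4 and 88.2 CPM in NS cells, 0.94 ± 0.04, adjusted p = 2.36e-16). Others were Rras2 (0.68 ± 0.04, adjusted p = 6.77e-14), Mapk3 encoding ERK1 (0.52 ± 0.06, adjusted p = 3.81e-08), Map2k2 encoding MEK2 (0.40 ± 0.04) and the exchange factor gene Sos1 (0.38 ± 0.05). The adaptor gene Shc1 fell (-0.36 ± 0.06, adjusted p = 6.2e-06). Araf and Braf did not pass.

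Genes switched on by ERK were mostly higher, 15 of 19 tested, none lower, with a median of 0.37. Ier3, an immediate early gene that affects survival, stood at 306 and 317 CPM in knockdown cells, against 56.5 and 60.9 CPM in NS cells (log2 change 2.41 ± 0.05, adjusted p = 3.1e-24). Fosl1, an AP-1 subunit induced by ERK, stood at 27.5 and 26.4 CPM in knockdown cells, against 4.82 and 5.75 CPM in NS cells (log2 change 2.36 ± 0.13, adjusted p = 1.7e-15). The phosphatase genes Dusp4 and Dusp7 rose. Dusp4 had 12.99 and 12.8 CPM in knockdown and 4.36 and 4.87 CPM in NS cells (1.49 ± 0.15, adjusted p = 8.52e-10). Dusp7 had 144 and 145 CPM in knockdown and 84.4 and 92.4 CPM in NS cells (0.71 ± 0.05, adjusted p = 9.15e-13). For all 4 genes the lower knockdown library lay above the higher NS library. The ETS factor genes Etv4 and Etv5 rose. Etv4 had 156 and 152 CPM in knockdown and 114 and 125 CPM in NS cells (0.37 ± 0.05, adjusted p = 1.93e-07). Etv5 had 101 and 109 CPM in knockdown and 61.1 and 62.1 CPM in NS cells (0.77 ± 0.06, adjusted p = 7.14e-11). The feedback inhibitor genes Spry1 and Spred1, the immediate early gene Egr1 and the ERK phosphatase gene Dusp6 did not pass (0.05 ± 0.09, 0.02 ± 0.05, -0.10 ± 0.10 and 0.14 ± 0.07). Dusp6 passed with no filter on low counts (adjusted p = 0.00725), with a replicate block (0.0395), without DMSO knockdown library 1 (0.0374), without DMSO knockdown library 2 (0.039), without DMSO NS library 1 (0.0225), without DMSO NS library 2 (0.0219) and in a fit of the 4 libraries alone (0.0112).

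EGFR family ligands are secreted growth factors that keratinocytes make and respond to. Tgfa stood at 85.3 and 89.9 CPM in knockdown cells, against 47.6 and 45.8 CPM in NS cells (log2 change 0.91 ± 0.06, adjusted p = 9.8e-14). Epgn, encoding epigen, stood at 59.8 and 63.1 CPM in knockdown cells, against 28.7 and 31.5 CPM in NS cells (log2 change 1.03 ± 0.07, adjusted p = 2.41e-12). Ereg, encoding epiregulin, had 16.5 and 15.7 CPM in knockdown and 5.86 and 4.43 CPM in NS cells (1.66 ± 0.15, adjusted p = 4.29e-11). Areg, encoding amphiregulin, had 6.54 and 5.51 CPM in knockdown and 2.66 and 2.78 CPM in NS cells (1.15 ± 0.21, adjusted p = 1.8e-05). The receptor gene Erbb3 rose (128 and 133 CPM in knockdown and 44.6 and 45.7 CPM in NS cells, 1.53 ± 0.05, adjusted p = 2.57e-19) and Egfr did not pass (149 and 161 CPM in knockdown and 166 and 161 CPM in NS cells, -0.08 ± 0.04, adjusted p = 0.136). Egfr passed without Dox-4OHT knockdown library 2 (adjusted p = 0.0407). In all 7 of 12 rose and none fell (median 0.42). Of the AP-1 subunits 7 of 11 rose and 2 fell. Junb and Jund were among those higher (0.58 ± 0.04 and 0.38 ± 0.04). Jun fell (169 and 166 CPM in knockdown and 301 and 311 CPM in NS cells, -0.87 ± 0.04, adjusted p = 3.95e-17). Fosl2 fell (-0.34 ± 0.03, adjusted p = 1.7e-09).

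Terminal differentiation of the epidermis is the programme by which keratinocytes leave the basal layer, build a cornified envelope under the membrane and die as barrier cells. Of 22 tested genes of this programme 16 rose, all 16 by 2-fold or more, against 5.61% of all genes, and 1 fell. The median change was 2.08, or 1.91 with the 5 genes at 3 counts or fewer in a group set to their bound, or left out where both groups were that low. Levels were low for most: the median over the 25 list genes found was 3.85 CPM in knockdown cells and 0.660 CPM in NS cells. Lor, encoding loricrin, a main envelope protein, stood at 31.2 and 29.3 CPM in knockdown cells, against 2.93 and 2.01 CPM in NS cells (log2 change 3.61 ± 0.19, adjusted p = 6.93e-18). The envelope scaffold gene Ppl had 244 and 255 CPM in knockdown and 81.8 and 85.2 CPM in NS cells (1.58 ± 0.04, adjusted p = 1.35e-21). Its partner Evpl had 278 and 291 CPM in knockdown and 139 and 133 CPM in NS cells (1.06 ± 0.04, adjusted p = 4.19e-18). The protease inhibitor gene Cst6 had 25.8 and 26.8 CPM in knockdown and 8.22 and 8.93 CPM in NS cells (1.62 ± 0.11, adjusted p = 2.29e-13). Krt10, the keratin of the first suprabasal layer, went against the rest (3.87 and 4.69 CPM in knockdown and 6.37 and 5.64 CPM in NS cells, -0.49 ± 0.19, adjusted p = 0.0291). Krt10 lost its call with DESeq2 (adjusted p = 0.147), without Dox-4OHT knockdown library 1 (0.221) and without Dox-4OHT NS library 1 (0.153). Reads of the Sprr and keratin genes may be shared among near-identical copies, so single values of these families are uncertain.

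**Figure D3:**
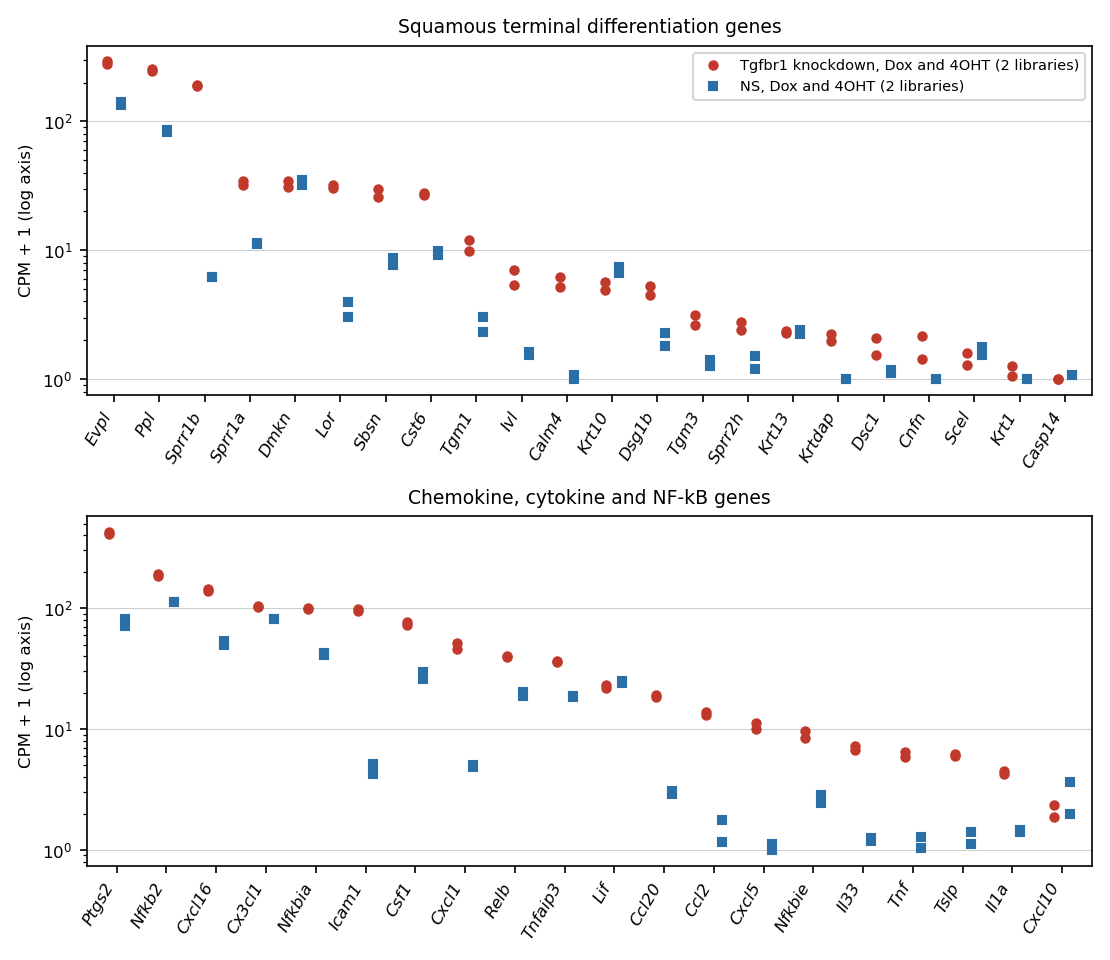
Levels of tested squamous differentiation genes and of chemokine, cytokine and NF-kB genes in each library (vertical log axis, CPM plus 1; red circles knockdown cells and blue squares NS cells, 2 libraries each, under Dox and 4OHT). Sprr1b, Lor and Icam1 show wide gaps between groups, while Lif and Cxcl10, which did not pass, lie close together or overlap.

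The transcription factors behind this programme followed in part, 13 of 20 higher and 2 lower (median 0.33). The number lower was 1 without either Dox-4OHT NS library and with DESeq2, and 4 without either DMSO knockdown library and with a replicate block. Grhl3, a grainyhead factor of barrier formation, stood at 35.5 and 36.3 CPM in knockdown cells, against 5.94 and 6.003 CPM in NS cells (log2 change 2.59 ± 0.12, adjusted p = 2.57e-17). Ovol1 and Gata3 rose. Ovol1 had 39.2 and 39.6 CPM in knockdown and 12.6 and 14.9 CPM in NS cells (1.51 ± 0.09, adjusted p = 4.44e-14). Gata3 had 21.00 and 18.98 CPM in knockdown and 6.87 and 7.504 CPM in NS cells (1.48 ± 0.13, adjusted p = 3e-11). Maf had 14.5 and 15.97 CPM in knockdown and 4.48 and 4.06 CPM in NS cells (1.82 ± 0.16, adjusted p = 2.71e-11). Klf4 rose by a smaller step (258 and 259.6 CPM in knockdown and 194 and 193 CPM in NS cells, 0.42 ± 0.04, adjusted p = 1.28e-10). Ovol2 fell (-0.68 ± 0.13, adjusted p = 7.01e-05), and Pou2f3, at under 1 CPM, fell too (-1.63 ± 0.72, adjusted p = 0.033). Grhl2, Cebpa and Cebpb did not pass. Pou2f3 lost its call with DESeq2 (adjusted p = 0.166), with no filter on low counts (0.0531), without Dox-4OHT knockdown library 1 (0.253), without Dox-4OHT NS library 1 (0.153) and without Dox-4OHT NS library 2 (0.0529).

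Basal genes did not fall as a group, with 8 of 14 higher and 3 lower (median 0.19). Krt5 and the master factor Trp63 did not pass. Krt5 had 5956 and 5518 CPM in knockdown and 5768 and 5946 CPM in NS cells (-0.03 ± 0.03, adjusted p = 0.456). Trp63 had 461 and 436 CPM in knockdown and 445 and 429 CPM in NS cells (0.04 ± 0.03, adjusted p = 0.343). Krt14 fell by 0.27 and the plakin gene Dst by 0.48, while the laminin gene Lamb3, Itga6 and Cd44 rose (0.62 ± 0.03, 0.68 ± 0.03 and 0.69 ± 0.03), all with adjusted p of at most 7.9e-08. Of the 2 tested keratins of simple epithelia, Krt7 had 43.5 counts over both knockdown libraries and 0 in NS cells, at least 13.7-fold higher with a floor of 3 counts over the group. Krt19 had 97.5 counts in knockdown cells and 1 in NS cells, a ratio of 92.6 (16.2 to 3695).

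Junction genes rose almost throughout: 15 of 17 tested were higher, 5 of them 2-fold or more, and 1 was lower (median 0.37). Beside Cldn4, the tight junction gene Ocln had 33.9 and 32.4 CPM in knockdown and 10.1 and 10.98 CPM in NS cells (1.65 ± 0.10, adjusted p = 3.02e-14). Cldn1, another claudin, had 37.5 and 37.7 CPM in knockdown and 17.7 and 15.1 CPM in NS cells (1.20 ± 0.09, adjusted p = 1.41e-12). The desmosomal plaque gene Pkp2 rose (32.7 and 31.9 CPM in knockdown and 12.8 and 11.3 CPM in NS cells, 1.43 ± 0.10, adjusted p = 3.02e-13), and the desmoplakin gene Dsp rose by 0.35 ± 0.04. Tjp1 fell (-0.22 ± 0.04, adjusted p = 2.41e-05). Among cadherins the epithelial Cdh1 stood at 666 and 664 CPM in knockdown cells, against 386 and 396 CPM in NS cells (log2 change 0.77 ± 0.03, adjusted p = 3.19e-17). The neural cadherin gene Cdh2 stood at 72.2 and 71.1 CPM in knockdown cells, against 216 and 214 CPM in NS cells (log2 change -1.58 ± 0.04, adjusted p = 3.02e-21), and Cdh11 and the repressor gene Zeb1 also fell. Cdh11 had 8.11 and 7.304 CPM in knockdown and 22.6 and 21.6 CPM in NS cells (-1.51 ± 0.11, adjusted p = 2.8e-12). Zeb1 had 1.47 and 1.72 CPM in knockdown and 9.07 and 9.11 CPM in NS cells (-2.53 ± 0.23, adjusted p = 1.94e-11). The intermediate filament gene Vim was lower as well (1.76 and 2.54 CPM in knockdown and 4.71 and 5.78 CPM in NS cells, -1.32 ± 0.30, adjusted p = 0.000745). In the whole list of cadherins and EMT regulators 7 of 14 tested genes rose, none by 2-fold, 6 fell, 4 of them by 2-fold or more, and 1 did not pass (median 0.14). The other members that rose were Epcam (0.43 ± 0.04, adjusted p = 1.46e-10), the epithelial splicing factor genes Esrp1 and Esrp2 (0.28 ± 0.04 and 0.67 ± 0.06), S100a4 (0.65 ± 0.18, adjusted p = 0.00206), Cdh13 (0.12 ± 0.05, adjusted p = 0.0305) and Twist1 (0.27 ± 0.10, adjusted p = 0.0169). The other members that fell were Cdh3 (-0.23 ± 0.03, adjusted p = 2.29e-06) and the repressor gene Snai2 (-0.28 ± 0.06, adjusted p = 0.000249). Cdh13 lost its call with DESeq2 (adjusted p = 0.119), without Dox-4OHT knockdown library 1 (0.246) and without Dox-4OHT NS library 1 (0.165). Twist1 lost its call with DESeq2 (adjusted p = 0.122), without Dox-4OHT knockdown library 1 (0.0632), without Dox-4OHT knockdown library 2 (0.0536) and without Dox-4OHT NS library 2 (0.0754).

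The promoters of tested list members, whichever way they moved, were searched for letters known to bind AP-1, TGANTCA on both strands. The window was the 300 bases from 250 before to 50 after each RefSeq start (build GRCm38.p6, not the mm9 of the counts). Of the 22 tested differentiation genes 16 matched a promoter by symbol, and 10 of these 16 held the letters (62.5%), against 8.97% of 27025 genes. That list was assembled as genes of the differentiation programme, so this share says nothing about the knockdown. The same letters were in 40.0% of 15 cytokine genes and 23.5% of 17 interferon-stimulated genes, and in none of 12 MAPK output, 11 TGF-beta target and 9 YAP target genes with a promoter entry. The 250 bases before the start are printed for differentiation and junction genes named above whose promoters hold the letters in that stretch, which capitals mark.

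Sprr1b (chr3:92438780-92439029, minus strand): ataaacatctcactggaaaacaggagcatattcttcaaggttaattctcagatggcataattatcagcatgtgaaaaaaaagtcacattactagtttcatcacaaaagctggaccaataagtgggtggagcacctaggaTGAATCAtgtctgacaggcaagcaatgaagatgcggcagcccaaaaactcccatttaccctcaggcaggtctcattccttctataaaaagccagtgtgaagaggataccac
Lor (chr3:92083143-92083392, minus strand): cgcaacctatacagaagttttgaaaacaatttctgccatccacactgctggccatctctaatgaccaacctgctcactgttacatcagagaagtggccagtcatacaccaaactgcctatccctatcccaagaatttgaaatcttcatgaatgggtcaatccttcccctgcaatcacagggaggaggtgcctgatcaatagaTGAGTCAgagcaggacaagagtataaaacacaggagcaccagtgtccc
Cldn4 (chr5:134946935-134947184, minus strand): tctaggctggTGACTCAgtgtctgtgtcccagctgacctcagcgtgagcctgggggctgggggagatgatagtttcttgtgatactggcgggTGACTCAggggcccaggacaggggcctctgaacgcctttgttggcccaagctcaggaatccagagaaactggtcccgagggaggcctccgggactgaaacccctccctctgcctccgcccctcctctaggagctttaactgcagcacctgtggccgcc

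The match began 111 bases before the start in Sprr1b, 48 in Lor, and 240 and 158 in Cldn4. A match describes these letters and is no evidence of binding.

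Cytokine and NF-kB genes rose almost as a whole: 18 of 20 tested were higher, 16 by 2-fold or more, none fell, and the median was 2.38. Icam1, an adhesion molecule that binds leukocytes, stood at 94.1 and 97.2 CPM in knockdown cells, against 4.17 and 3.26 CPM in NS cells (log2 change 4.70 ± 0.14, adjusted p = 2.65e-24). Cxcl1, a neutrophil chemokine, stood at 45.2 and 50.3 CPM in knockdown cells, against 3.82 and 4.06 CPM in NS cells (log2 change 3.58 ± 0.15, adjusted p = 1.42e-19). Ccl2, a monocyte chemokine, stood at 12.8 and 11.95 CPM in knockdown cells, against 0.154 and 0.769 CPM in NS cells (log2 change 4.76 ± 0.44, adjusted p = 2.1e-14). All knockdown libraries lay above all NS libraries for these genes, and the NS levels of Ccl2 were under 1 CPM. Cxcl16 had 137 and 144 CPM in knockdown and 48.8 and 52.01 CPM in NS cells (1.48 ± 0.05, adjusted p = 4.54e-19). The macrophage growth factor gene Csf1 had 71.99 and 76.6 CPM in knockdown and 28.6 and 25.2 CPM in NS cells (1.47 ± 0.07, adjusted p = 2.46e-16). Nfkbia, the inhibitor that NF-kB induces against itself, had 99.9 and 96.8 CPM in knockdown and 41.7 and 40.04 CPM in NS cells (1.27 ± 0.06, adjusted p = 7e-17). The 2 members that did not pass were Lif and Cxcl10, which are named for that after their values were seen. Markers of immune cells at 0 in all 4 libraries included Ptprc, Adgre1 and Cd3e, and the summed immune list, which is mostly Cd68, was 20.5 to 21.1 CPM in knockdown cells and 11.7 to 13.5 CPM in NS cells.

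NF-kB binds a longer and looser motif, of which GGGNNNTTC on both strands was searched in the same windows. Of the 20 tested genes 15 matched a promoter, and 10 of 15 held the letters (66.7%), against 15.8% of all 27025 genes. The list was assembled with NF-kB genes among its members, so this share says nothing about the knockdown. The letters are shown in capitals for the members named above whose 250 bases before the start hold them.

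Cxcl1 (chr5:90890995-90891244, plus strand): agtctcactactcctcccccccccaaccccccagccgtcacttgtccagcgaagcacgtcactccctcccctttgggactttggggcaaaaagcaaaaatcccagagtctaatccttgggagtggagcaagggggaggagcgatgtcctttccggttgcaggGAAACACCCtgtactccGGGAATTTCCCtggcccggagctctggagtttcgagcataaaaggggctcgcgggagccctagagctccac
Icam1 (chr9:21015690-21015939, plus strand): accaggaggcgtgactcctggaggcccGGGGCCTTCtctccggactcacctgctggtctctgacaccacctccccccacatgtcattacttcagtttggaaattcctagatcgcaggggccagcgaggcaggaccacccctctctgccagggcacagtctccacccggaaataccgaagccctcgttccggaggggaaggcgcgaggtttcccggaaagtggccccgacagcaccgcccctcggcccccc
Nfkbia (chr12:55492648-55492897, minus strand): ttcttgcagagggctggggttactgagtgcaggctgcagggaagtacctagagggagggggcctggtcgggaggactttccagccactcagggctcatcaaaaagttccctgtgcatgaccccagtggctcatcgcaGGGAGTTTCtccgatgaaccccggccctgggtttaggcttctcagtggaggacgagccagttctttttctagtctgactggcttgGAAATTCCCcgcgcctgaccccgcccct
Csf1 (chr3:107760470-107760719, minus strand): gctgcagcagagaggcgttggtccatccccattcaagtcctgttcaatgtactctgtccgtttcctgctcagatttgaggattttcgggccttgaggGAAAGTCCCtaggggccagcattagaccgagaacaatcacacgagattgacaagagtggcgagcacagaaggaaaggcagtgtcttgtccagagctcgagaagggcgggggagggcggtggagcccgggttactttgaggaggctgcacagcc

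In Cxcl1 matches began 88, 71 and 69 bases before the start, the last pair overlapping each other on opposite strands. They began 223 bases before the start in Icam1, 113 and 28 in Nfkbia and 153 in Csf1. The share of promoters with these letters was 18.8% among the 16 differentiation genes matched.

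Interferon-stimulated genes, which respond to virus sensing, were split: 5 of 22 tested rose and 9 fell, 6 of those by 2-fold or more, against 4.67% of all genes (median -0.59). Irf9, a subunit of the interferon-activated factor, stood at 4.103 and 3.87 CPM in knockdown cells, against 15.8 and 23.8 CPM in NS cells (log2 change -2.30 ± 0.21, adjusted p = 7.85e-08). Usp18, which dampens interferon signalling, had 0.326 and 0.742 CPM in knockdown and 2.62 and 3.62 CPM in NS cells (-2.54 ± 0.46, adjusted p = 2.82e-06). The NS libraries differed from each other for Irf9, and by more for Xaf1 and Bst2, which are named for that spread after their values were seen. Xaf1 had 2.800 and 3.28 CPM in knockdown and 6.02 and 11.3 CPM in NS cells. Bst2 had 5.37 and 4.57 CPM in knockdown and 4.24 and 12.3 CPM in NS cells. The factor genes Irf1 and Stat2 went the other way (60.3 and 56.5 CPM in knockdown and 23.1 and 21.5 CPM in NS cells, 1.39 ± 0.07, adjusted p = 2.76e-15, and 34.02 and 34.5 CPM in knockdown and 20.4 and 19.8 CPM in NS cells, 0.77 ± 0.09, adjusted p = 3.21e-08). So did Ifit2 (0.42 ± 0.07), Ifih1 (0.80 ± 0.22) and Ddx58 (0.60 ± 0.14), the last with adjusted p = 0.0137. Ddx58 lost its call without Dox-4OHT knockdown library 1 (adjusted p = 0.0612) and in a fit of the 4 libraries alone (0.08). Bst2 passed without Dox-4OHT NS library 1 (adjusted p = 2.29e-06). Of 17 of these genes with a promoter entry, 10 held the letters GAAANNGAA of the interferon response element (58.8%), against 9.76% of all genes. The list was assembled as genes that respond to interferon, so this share says nothing about the knockdown. Class I antigen presentation genes did not follow the falls, with 8 of 10 higher and none lower (median 0.61). Tapbp, the peptide loading factor tapasin, stood at 416 and 412 CPM in knockdown cells, against 174 and 206 CPM in NS cells (log2 change 1.12 ± 0.07, adjusted p = 9.26e-07). The class I heavy chain gene H2-D1 had 89.2 and 92.4 CPM in knockdown and 49.5 and 56.4 CPM in NS cells (0.78 ± 0.06, adjusted p = 4.95e-12). Its light chain gene B2m had 139.8 and 132 CPM in knockdown and 81.9 and 101 CPM in NS cells (0.57 ± 0.08, adjusted p = 7.88e-05). The peptide transporter gene Tap2 had 10.3 and 9.22 CPM in knockdown and 3.86 and 3.81 CPM in NS cells (1.35 ± 0.17, adjusted p = 3.42e-08).

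Cell division genes were lower in knockdown cells, by small steps. Of 18 mitosis genes 16 fell and none rose (median -0.42), and of 18 replication genes 14 fell and 1 rose (median -0.22). Cdc20, which activates the anaphase-promoting complex, stood at 122 and 119 CPM in knockdown cells, against 227 and 238 CPM in NS cells (log2 change -0.94 ± 0.04, adjusted p = 9.53e-17). Ccna2, cyclin A2, stood at 204 and 195 CPM in knockdown cells, against 369 and 351 CPM in NS cells (log2 change -0.85 ± 0.04, adjusted p = 1.08e-16). Rrm2, a subunit of the enzyme that makes deoxynucleotides, stood at 81.3 and 82.9 CPM in knockdown cells, against 198 and 209 CPM in NS cells (log2 change -1.31 ± 0.04, adjusted p = 1.17e-19). These are the larger changes of the pair of lists, and Rrm2 alone was called and 2-fold lower in either list. Mki67, a proliferation marker and a long gene, did not pass (333 and 432 CPM in knockdown and 556 and 479 CPM in NS cells, -0.44 ± 0.17, adjusted p = 0.0979), and its replicates differed in both groups. Mki67 passed with DESeq2 (adjusted p = 0.0382). Mcm4 was the gene that rose (0.12 ± 0.04, adjusted p = 0.00777). Mcm4 lost its call without Dox-4OHT knockdown library 1 (adjusted p = 0.0841). Cdkn1a rose as given above, Cdkn2a rose (149.7 and 149 CPM in knockdown and 111 and 113 CPM in NS cells, 0.41 ± 0.04, adjusted p = 1.89e-09) and Cdkn1b rose (0.34 ± 0.05), while Cdkn2c and Rb1 fell. Cdkn2c had 36.3 and 35.7 CPM in knockdown and 59.4 and 62.6 CPM in NS cells (-0.76 ± 0.06, adjusted p = 4.05e-11). Rb1 had 38.6 and 40.97 CPM in knockdown and 65.7 and 61.8 CPM in NS cells (-0.68 ± 0.07, adjusted p = 7.09e-10). Myc did not pass (106 and 108 CPM in knockdown and 99.3 and 109 CPM in NS cells, 0.03 ± 0.05, adjusted p = 0.574).

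**Figure D4:**
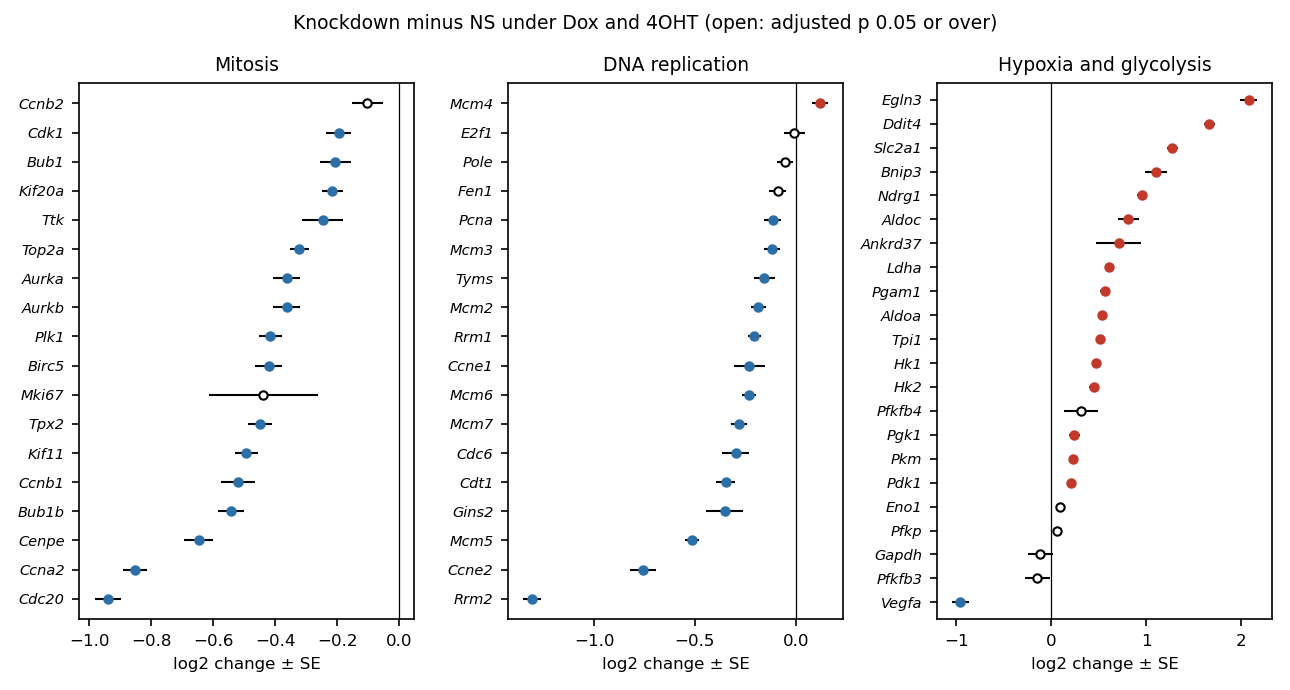
Log2 change with its standard error (horizontal axis, knockdown minus NS under Dox and 4OHT) of mitosis, DNA replication and hypoxia and glycolysis genes. Filled red points rose, filled blue points fell and open points did not pass; 16 of 18 mitosis genes lie to the left of 0 and passed, and 16 of 22 hypoxia and glycolysis genes lie to the right of 0 and passed.

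Of 19 tested p53 targets 8 rose, 6 of them by 2-fold or more, 4 fell and 7 did not pass (median 0.07). The death receptor gene Fas stood at 1.73 and 2.07 CPM in knockdown cells, against 0.463 and 0.293 CPM in NS cells (log2 change 2.27 ± 0.50, adjusted p = 4.53e-05). Eda2r, a receptor of the same family, had 5.63 and 7.304 CPM in knockdown and 0.309 and 0.512 CPM in NS cells (3.93 ± 0.47, adjusted p = 6.01e-11). The death-promoting gene Bbc3 had 3.61 and 5.08 CPM in knockdown and 1.23 and 2.56 CPM in NS cells (1.17 ± 0.29, adjusted p = 0.000883). Mdm2, Ccng1, Sesn1 and Bax did not pass, with Mdm2 at 91.04 and 89.1 CPM in knockdown and 87.8 and 90.3 CPM in NS cells. Of the Bcl2 family 6 of 11 rose and 3 fell. The death-promoting gene Bmf had 6.38 and 4.22 CPM in knockdown and 2.01 and 1.501 CPM in NS cells (1.63 ± 0.28, adjusted p = 4.25e-06). Pmaip1, another death-promoting gene and a p53 target, had 120.0 and 118 CPM in knockdown and 57.4 and 54.3 CPM in NS cells (1.09 ± 0.05, adjusted p = 3.08e-16). Bcl2l11, which encodes BIM, rose as well (1.12 ± 0.11, adjusted p = 4.24e-10). The survival gene Bcl2l1 had 110.2 and 103 CPM in knockdown and 69.1 and 69.5 CPM in NS cells (0.62 ± 0.05, adjusted p = 3.66e-11). Bcl2 and Bcl2l2, both survival genes, fell. Bcl2 had 24.6 and 27.9 CPM in knockdown and 51.04 and 44.7 CPM in NS cells (-0.87 ± 0.08, adjusted p = 2.09e-10). Bcl2l2 had 14.5 and 15.2 CPM in knockdown and 28.5 and 29.6 CPM in NS cells (-0.97 ± 0.09, adjusted p = 3.31e-10). The death-promoting genes Bbc3, Bmf, Pmaip1 and Bcl2l11 rose, but they were taken from the p53 and Bcl2 lists together. In the Bcl2 list itself 2 members were called and at least 2-fold higher. The survival genes named here moved in both directions, and not every member that fell is named. Without the first Dox-4OHT NS library 2 p53 targets fell in place of 4.

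Glycolysis and hypoxia genes were higher in 16 of 22 cases and lower in 1 (median 0.49). Egln3, a hypoxia-induced prolyl hydroxylase, stood at 70.4 and 72.8 CPM in knockdown cells, against 17.3 and 16.5 CPM in NS cells (log2 change 2.08 ± 0.09, adjusted p = 4.14e-18). Ddit4, a stress-induced inhibitor of mTORC1, stood at 159.8 and 165 CPM in knockdown cells, against 48.4 and 53.5 CPM in NS cells (log2 change 1.67 ± 0.06, adjusted p = 4.75e-19). Ndrg1 had 118 and 120.0 CPM in knockdown and 59.8 and 62.5 CPM in NS cells (0.96 ± 0.06, adjusted p = 2.35e-14). These hypoxia targets were all higher in knockdown cells. Ldha, lactate dehydrogenase A, had 895 and 924 CPM in knockdown and 576 and 619 CPM in NS cells (0.61 ± 0.04, adjusted p = 6.19e-14). The glycolytic enzyme gene Tpi1 had 604 and 609 CPM in knockdown and 405 and 442 CPM in NS cells (0.52 ± 0.04, adjusted p = 2.63e-12). The exception was Vegfa, the angiogenic factor and a hypoxia target, with 22.1 and 24.6 CPM in knockdown and 41.4 and 48.7 CPM in NS cells (-0.95 ± 0.09, adjusted p = 3.96e-10). Gapdh was counted at 11.7 and 9.37 CPM in knockdown cells, against 11.5 and 11.4 CPM in NS cells. It has many near-identical copies in the genome, so its value is uncertain, and it is named for that after its values were seen. Targets of ATF4, the factor of the amino acid and unfolded protein response, had 10 of 22 lower and 3 higher (median -0.11). The 3 became 1 without the first Dox-4OHT NS library and with DESeq2. The amino acid transporter gene Slc7a5 had 238 and 243 CPM in knockdown and 500.4 and 506 CPM in NS cells (-1.07 ± 0.05, adjusted p = 1.98e-12). Slc3a2, which encodes its partner chain, had 291 and 271 CPM in knockdown and 409 and 428 CPM in NS cells (-0.57 ± 0.04, adjusted p = 1.14e-12). Asns, encoding asparagine synthetase, also fell (-0.39 ± 0.04, adjusted p = 3.18e-10). Psat1, of serine synthesis, rose (0.26 ± 0.03, adjusted p = 3.07e-07).

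Matrix genes leaned lower, 10 of 19 lower and 6 higher, against 29.7% and 30.5% of all genes (median -0.33). The part of the lower fibroblast list, given above, in this was not tested. Col7a1, the anchoring fibril collagen of the dermal junction, stood at 211 and 221 CPM in knockdown cells, against 339 and 329 CPM in NS cells (log2 change -0.63 ± 0.04, adjusted p = 1.69e-14). Col4a5 went the other way (558 and 536 CPM in knockdown and 172 and 173 CPM in NS cells, 1.66 ± 0.04, adjusted p = 1.99e-23). So did Loxl4 (0.59 ± 0.04), Col16a1 (0.59 ± 0.07), Col18a1 (0.30 ± 0.03) and Col8a1 (0.18 ± 0.03). Proteases and their inhibitors split 7 higher and 7 lower of 15, with 5 of the rises at 2-fold or more. Plau, the urokinase plasminogen activator, stood at 91.3 and 91.04 CPM in knockdown cells, against 21.3 and 22.6 CPM in NS cells (log2 change 2.06 ± 0.07, adjusted p = 8.21e-20). Its receptor gene Plaur had 18.4 and 20.7 CPM in knockdown and 6.598 and 7.83 CPM in NS cells (1.43 ± 0.15, adjusted p = 1.61e-08). Serpinb2, which inhibits urokinase, had 54.6 and 55.4 CPM in knockdown and 4.900 and 4.43 CPM in NS cells (3.56 ± 0.13, adjusted p = 3.11e-21). Mmp14 rose (302 and 294 CPM in knockdown and 182 and 187 CPM in NS cells, 0.70 ± 0.04, adjusted p = 2.63e-15), and Mmp15 and Adam12 fell. Mmp15 had 29.1 and 26.6 CPM in knockdown and 57.8 and 58.2 CPM in NS cells (-1.06 ± 0.09, adjusted p = 5.56e-09). Adam12 had 5.44 and 6.01 CPM in knockdown and 32.4 and 34.1 CPM in NS cells (-2.54 ± 0.14, adjusted p = 1.37e-15). Integrins were all called, 8 higher and 5 lower of 13, with 3 lower without the second Dox-4OHT knockdown library, without the first Dox-4OHT NS library and with DESeq2.

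Oncofetal genes, active in the embryo and often again in tumours, rose in 7 of 9 cases and fell in none (median 0.96). Beside Hmga2 and H19, Igf2bp2, an RNA-binding protein gene, stood at 153 and 154 CPM in knockdown cells, against 43.02 and 44.6 CPM in NS cells (log2 change 1.81 ± 0.05, adjusted p = 2.22e-21), and Igf2bp3 and Hmga1 rose. Igf2bp3 had 145 and 148 CPM in knockdown and 77.8 and 78.9 CPM in NS cells (0.90 ± 0.05, adjusted p = 4.43e-15). Hmga1 had 74.5 and 79.9 CPM in knockdown and 38.6 and 40.6 CPM in NS cells (0.96 ± 0.06, adjusted p = 1.47e-13). The growth factor binding protein genes diverged. Igfbp7 stood at 790.3 and 788 CPM in knockdown cells, against 202 and 212 CPM in NS cells (log2 change 1.93 ± 0.04, adjusted p = 5.44e-25). Igfbp5 went the other way, with 3.71 and 2.85 CPM in knockdown and 16.9 and 13.7 CPM in NS cells (-2.20 ± 0.22, adjusted p = 2.88e-08). Igfbp2 and Igfbp3 fell too (-1.10 ± 0.04 and -0.93 ± 0.03, adjusted p at most 6.75e-19). Of 12 S100 and annexin genes 10 rose and 2 fell, with 1 called lower without either Dox-4OHT knockdown library, without the second Dox-4OHT NS library and with DESeq2. Anxa1 stood at 1115 and 1143 CPM in knockdown cells, against 432 and 475 CPM in NS cells (log2 change 1.32 ± 0.04, adjusted p = 3.19e-20), and Anxa8 fell (86.9 and 84.4 CPM in knockdown and 170.5 and 180.0 CPM in NS cells, -1.03 ± 0.05, adjusted p = 8.93e-16). Semaphorin, plexin and ephrin genes rose in 15 of 20 cases and fell in 3. The co-receptor gene Nrp1 rose (178 and 190.3 CPM in knockdown and 54.3 and 49.9 CPM in NS cells, 1.82 ± 0.06, adjusted p = 5.24e-19). Nrp2 fell (-0.51 ± 0.04, adjusted p = 3.56e-12).

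Further lists, here and in the next paragraph, are given by their counts, with 30.5% of all genes higher and 29.7% lower as background. Of 12 tested Hedgehog genes 2 rose and 6 fell (median -0.27). Gli1, the pathway's own target, was low in both groups, at 0.554 and 0.781 CPM in knockdown and 1.12 and 1.32 CPM in NS cells (-0.90 ± 0.47, adjusted p = 0.0884). The receptor gene Ptch1 rose (20.7 and 21.1 CPM in knockdown and 13.6 and 12.6 CPM in NS cells, 0.68 ± 0.10, adjusted p = 1.98e-06). The inhibitor gene Sufu fell (35.9 and 36.2 CPM in knockdown and 80.8 and 78.4 CPM in NS cells, -1.14 ± 0.06, adjusted p = 2.01e-15). The co-receptor gene Boc fell (10.03 and 9.999 CPM in knockdown and 28.4 and 26.2 CPM in NS cells, -1.45 ± 0.10, adjusted p = 9.48e-13). Hair follicle factors had 3 higher and 7 lower of 13 (median -0.22). The stem cell gene Lgr6 fell (3.26 and 2.66 CPM in knockdown and 10.2 and 12.3 CPM in NS cells, -1.91 ± 0.19, adjusted p = 1.92e-10), as did Nfatc1 (-0.79 ± 0.10, adjusted p = 1.76e-07). Sox9, a factor of follicle stem cells, was slightly lower (-0.30 ± 0.03, adjusted p = 1.08e-08). YAP and TEAD genes had 8 higher and 1 lower of 15 (median 0.14), with Axl (0.57 ± 0.04, adjusted p = 6.81e-13), Crim1 (0.58 ± 0.04, adjusted p = 1.55e-13) and Cyr61 (0.72 ± 0.11, adjusted p = 0.00359) higher and Ctgf not past the test (-0.01 ± 0.06, adjusted p = 0.93). Of 9 of these with a promoter entry 8 held GGAATG, the TEAD letters, against 16.6% of all genes. That list too was assembled around the factor whose letters were searched. In all, 7 sets of letters were searched in 6 lists. The SMAD box letters CAGACA were in 2 of 11 TGF-beta targets (18.2%) and 7 of 16 differentiation genes (43.8%), against 23.6% of all genes. The ETS letters CCGGAAGT were in none of 12 MAPK output genes, against 4.31% of all genes, and the CRE letters TGACGTCA in 1 of 12 (8.33%), against 2.03%. Wnt genes had 6 higher and 3 lower of 13. The ligand gene Wnt10a rose (150.5 and 146 CPM in knockdown and 70.5 and 68.4 CPM in NS cells, 1.09 ± 0.05, adjusted p = 1.77e-17) and the Wnt factor gene Lef1 fell (-1.23 ± 0.27, adjusted p = 0.000179). Notch genes had 4 higher and 2 lower of 12, and the receptor gene Notch3 rose (13.4 and 15.04 CPM in knockdown and 3.09 and 3.55 CPM in NS cells, 2.10 ± 0.18, adjusted p = 1.01e-11).

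Sterol synthesis genes were 7 higher and 7 lower of 22 (median -0.01), with Insig1 higher (0.61 ± 0.04, adjusted p = 1.46e-12). Glutathione and NRF2 genes were 7 and 5 of 18, the 5 becoming 3 without the first Dox-4OHT NS library, and Nqo1 rose (0.50 ± 0.07, adjusted p = 5.17e-07). Actin and SRF targets were 9 and 3 of 16, heat shock genes 10 and 3 of 16, and metallothionein and zinc genes 1 and 4 of 6, with Mt1 lower (599 and 582 CPM in knockdown and 851 and 892 CPM in NS cells, -0.56 ± 0.04, adjusted p = 1.58e-13). Wound keratins were 3 higher and 1 lower of 5, with Krt6a at 1182 and 1119.7 CPM in knockdown and 879.9 and 907 CPM in NS cells (0.37 ± 0.04, adjusted p = 3.55e-09) and Krt17 lower (-0.20 ± 0.03, adjusted p = 3.06e-05). These keratins have close copies among themselves, whose reads the counting may have mixed.

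Whether the knockdown did the same under both treatments was tested as an interaction, the knockdown change under Dox and 4OHT minus that under DMSO. Each change comes from 4 libraries of its own. They differed for 4791 of 12538 genes (38.2%), 2530 with a more positive change under Dox and 4OHT and 2261 with a more negative one, and for 537 genes by 2-fold or more. Of the genes called under both treatments 4696 of 5428 moved the same way. DESeq2 called fewer interactions, 2828, as given in the closing section.

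The largest negative interactions included genes of ERK output, which the knockdown raised more under DMSO than under Dox and 4OHT. Etv4 had 156 and 152 CPM in knockdown and 114 and 125 CPM in NS cells with both agents, a change of 0.37 ± 0.05, and 91.4 and 98.8 CPM in DMSO-treated knockdown cells, against 10.7 and 11.8 CPM in DMSO-treated NS cells, a change of 3.09 ± 0.09 (interaction -2.72 ± 0.10, adjusted p = 9.3e-18). Etv5 had 40.2 and 48.1 CPM in DMSO-treated knockdown cells, against 3.11 and 3.44 CPM in DMSO-treated NS cells, a change of 3.77 ± 0.16 (interaction -2.99 ± 0.18, adjusted p = 9.3e-14). Dusp6 had 73.3 and 83.9 CPM in DMSO-treated knockdown cells, against 16.1 and 21.3 CPM in DMSO-treated NS cells (interaction -1.95 ± 0.12, adjusted p = 4.61e-08). In each of these the DMSO libraries of NS cells were the low ones, and the other 3 groups lay closer together. Spry4 (-3.48 ± 0.82), the surface protein gene Fxyd5 (-3.11 ± 0.80), the Wnt factor gene Tcf7 (-2.03 ± 0.15), the IkB family gene Bcl3 (-1.81 ± 0.72) and the kinase gene Prkg2 (-1.81 ± 0.14) complete these 8, with adjusted p of at most 0.0161. DMSO-treated NS cells had only 3 and 2.5 counts of Spry4, 4.5 and 0.5 of Fxyd5, and 2 and 2 of Bcl3. Spry4 also differed between the DMSO-treated knockdown libraries, with 28 and 65.5 counts. The sizes of the interactions of Spry4, Fxyd5 and Bcl3 are therefore uncertain. Bcl3 lost its call with DESeq2 (adjusted p = 0.0819), without DMSO NS library 1 (0.104) and without DMSO NS library 2 (0.0614). Across the MAPK output list 13 of 19 interactions were negative and 1 positive, the median change being 0.37 under Dox and 4OHT and 1.23 under DMSO. For EGFR ligands and receptors 7 of 12 were negative. Over all 12538 genes tested 2261 interactions were negative and 2530 positive.

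**Figure D5:**
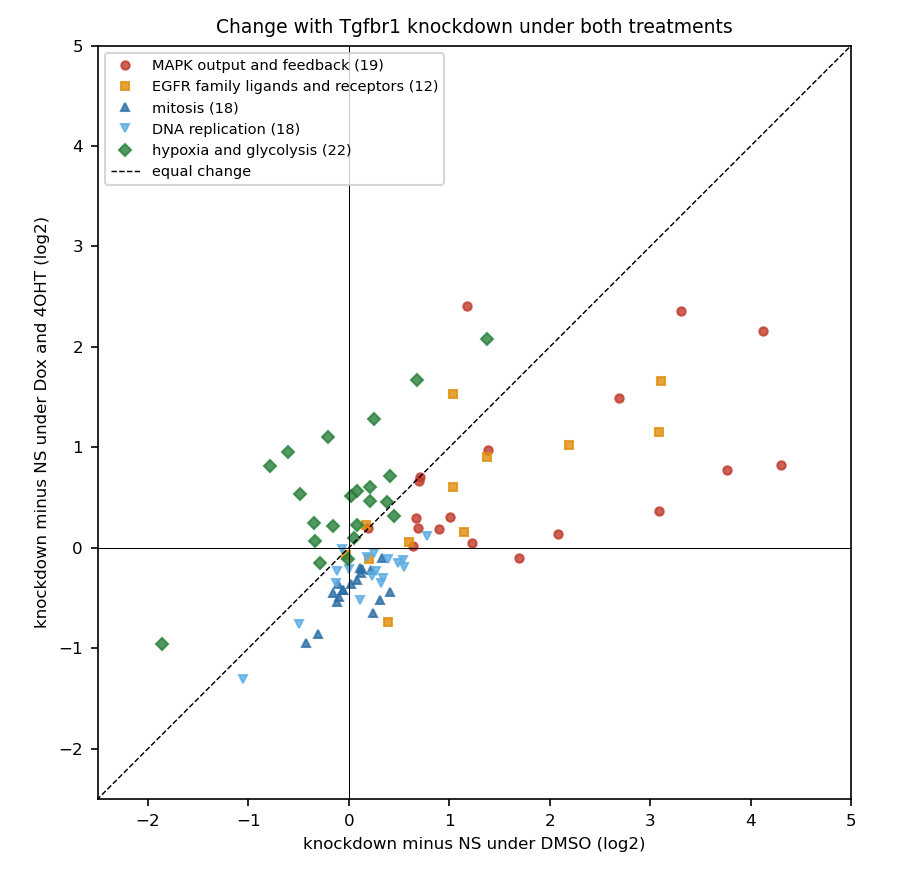
Log2 change with Tgfbr1 knockdown of each tested gene of 5 lists, under DMSO (horizontal axis) and under Dox and 4OHT (vertical axis), each from 4 libraries of its own; the dashed line marks equal change. MAPK output genes lie mostly to the right of the line, mitosis and replication genes below it and hypoxia and glycolysis genes above it.

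Among the largest positive interactions Krt16 and Foxq1 were lower with the knockdown under DMSO and not under Dox and 4OHT, whereas Adam8 and Nipal1 rose under both treatments. Krt16 had 71.3 and 66.8 CPM in knockdown and 50.7 and 54.8 CPM in NS cells with both agents (0.39 ± 0.09, adjusted p = 0.00214), and 77.8 and 65.7 CPM in DMSO-treated knockdown cells, against 364 and 335 CPM in DMSO-treated NS cells (interaction 2.68 ± 0.11, adjusted p = 8.01e-09). Foxq1, a forkhead factor, had 36.5 and 34.5 CPM in knockdown and 34.3 and 33.97 CPM in NS cells with both agents (0.06 ± 0.11, adjusted p = 0.668), and 18.1 and 12.1 CPM in DMSO-treated knockdown cells, against 94.3 and 86.6 CPM in DMSO-treated NS cells (interaction 2.66 ± 0.17, adjusted p = 1.01e-07). Sbsn, a secreted protein of cornifying cells, had 28.7 and 24.96 CPM in knockdown and 6.64 and 7.69 CPM in NS cells with both agents (1.91 ± 0.17, adjusted p = 3.32e-07), and 63.3 and 53.3 CPM in DMSO-treated knockdown cells, against 81.97 and 93.3 CPM in DMSO-treated NS cells (interaction 2.50 ± 0.19, adjusted p = 3.14e-07). For Krt16 and Foxq1 NS cells under DMSO were the high ones. For Sbsn they were highest as well, but NS cells with both agents were the lowest group. Krt75 (2.53 ± 0.25), the tubulin gene Tubb3 (2.54 ± 0.16), Pgm5 (2.63 ± 0.31), Adam8 (2.97 ± 0.30) and Nipal1 (2.84 ± 0.68) were the others, with adjusted p of at most 0.000105. Nipal1 had only 3.5 and 1 counts in NS cells with both agents, so the size of its interaction is uncertain. The cell division genes differed between treatments as a group. For mitosis 17 of 18 interactions were negative, with a median change of -0.42 under Dox and 4OHT and 0.05 under DMSO, and for replication 15 of 18, with medians of -0.22 under Dox and 4OHT and 0.24 under DMSO. For hypoxia and glycolysis 16 of 22 were positive, with medians of 0.49 under Dox and 4OHT and 0.04 under DMSO. Junction genes had 12 positive and 1 negative of 17, and TGF-beta and SMAD targets 12 and 2 of 22. The background for these counts is 2530 positive and 2261 negative among all 12538 genes. The shift of Esr1 with treatment and the RasV12 label move with these differences, and their parts cannot be told apart.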

How the data were processed

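RNA-seq was deposited for 8 libraries in 4 groups of 2, and the samples were grouped by the genotype and treatment in their labels. The authors' deposited table holds estimated counts per transcript entry, aligned with TopHat to mm9 and counted with HOMER, with DESeq2 also named, per the submitters' processing notes and the series' design text. Every value is a multiple of 0.5, and versions, strand setting and filters are not stated there. The deposited table also gives each entry's length, used for CPM per kb. A kit or counting without strand cannot separate a gene from its antisense partner, and reads of near-identical genes may be shared.

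The estimated counts of 24907 symbols were made whole by rounding before testing, although the planned design assumed plain counts. All 8 libraries were fitted with a mean per group in edgeR 4.0.16 (R 4.3.3), after filterByExpr (minimum count of 10), which left 12538 genes, and TMM scaling. The robust quasi-likelihood test had 4 residual degrees of freedom, and Benjamini-Hochberg adjustment ran over all 12538 genes at a threshold of 0.05. Standard errors are model-based. Intervals of count ratios are 95% exact intervals for counting error only, and bounds use a floor of 3 counts over a group. Dropped were 2 second entries of a symbol, and 24 symbols that read as dates were not named.

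Named genes were the Ras genes, Esr1 and the TGF-beta family receptors, SMADs and ligands. Beyond these they were the 15 largest rises and 15 largest falls among called genes with a mean of at least 5 CPM and no overlap between groups, and the 8 largest interactions each way. Predicted genes and small RNAs were left out. Of each gene list they were up to 5 called members with the smallest p and called members that went against the majority, or any member of a list of up to 20. The members and the gene lists were chosen with earlier results of these data known. Data were simulated with the spread fitted to these same libraries, without further differences between libraries. There 86 of 100 genes changed by 1.5-fold and 96 of 100 changed by 2-fold were recovered, and 8 of 12146 unchanged genes were called. Far fewer genes were changed there than were called in the data, so false calls among the real results were not tested. Alternatives were other scaling and tools (DESeq2 1.42.0), no filter, a replicate block, Rn45s left out, the 4 libraries alone and each library left out. Promoter sequences are RefSeq's.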

Additional observations from a re-analysis of the deposited data

Results flagged for a closer look

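The knockdown change differed between treatments, by the test of the difference itself, for 4791 genes (edgeR's quasi-likelihood test, Benjamini-Hochberg adjusted). Differences are the log2 change under Dox and 4OHT minus that under DMSO, with 2 libraries in each of the 4 groups. Among the 16 genes named, the change was more positive under Dox and 4OHT for Adam8 (2.97), Nipal1 (2.84), Krt16 (2.68), Foxq1 (2.66), Pgm5 (2.63), Tubb3 (2.54), Krt75 (2.53) and Sbsn (2.50). It was more negative for Spry4 (-3.48), Fxyd5 (-3.11), Etv5 (-2.99), Etv4 (-2.72), Tcf7 (-2.03), Dusp6 (-1.95), Bcl3 (-1.81) and Prkg2 (-1.81). Sizes for Nipal1, Spry4, Fxyd5 and Bcl3 are uncertain, since NS cells under a treatment held few counts of each. The groups hold 2 libraries each, too few for a check of single outlying samples.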

How the results depend on the processing

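DESeq2 called 2828 genes for the interaction of knockdown and treatment, 1618 more positive and 1210 more negative, against 4791 with edgeR, and the cause was not tested. For the knockdown under Dox and 4OHT it called 5834 genes, against 7541. Leaving out each library in turn gave 6586 to 7608 called genes for the knockdown and 3918 to 4533 for the interaction, where the lone library left in a group is assumed to vary like the other groups. With the replicate block the counts were 7552 and 4814. Replicate numbers did not pair the libraries, since deviations of same-numbered libraries correlated at -0.053 to 0.074. With size factors of the relative log expression kind the counts were 7539 and 4787, with no filter 7664 and 4868, and with Rn45s left out 7582 and 4803. A fit of the 4 Dox and 4OHT libraries alone called 7348. Each of the 49 lists kept its number of called members, both directions summed, within 1.5 times under the 14 alternatives. In 1 direction the count of 11 lists moved by more under some alternative. Those of 7 are given beside their results, and those of the other 4 (EGFR family, squamous differentiation, chemokines and cytokines, DNA replication) went between 0 and 1. Interferon-stimulated genes had 6 higher and 6 lower without the second Dox-4OHT library of either group, against 5 and 9. Of 246 named genes 227 kept their direction and their side of the threshold, and no log2 change of a called gene changed sign. Pgm5, not called under Dox and 4OHT, passed with no filter on low counts (adjusted p = 0.0115), without Dox-4OHT knockdown library 1 (0.00282), without DMSO NS library 1 (0.0413) and without DMSO NS library 2 (0.0409).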
